A study of Mus musculus with 12 samples.

Results

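*Edn1*, *Cytip*, *Galnt3*, *Pde7b*, *Emb* and *Dcn* are 6 genes that the study marked as lower in M1-activated macrophages lacking *Keap1* than in wild-type (WT) ones, once its cytokines and surface ligands are set aside. They are 6 of the 18221 gene symbols on the array and are read by 9 of its 41174 probes, with 2 probes each for *Cytip*, *Emb* and *Pde7b*. The members were chosen by the M1 levels of these same arrays, and the wider set they come from was also selected on induction by M1 in WT cells. Their M1 values are therefore given as a description without a test, and tests are kept for the untreated and IL-4 comparisons. The untreated WT arrays served in the M1 induction. The genotype difference in M2 and the IL-4 change in KpCKO are taken between arrays outside the choice. Their standard errors and p-values still rest partly on the arrays of the choice, since all groups were fitted together with a shared spread.

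The cells were bone marrow-derived macrophages (BMDMs), grown from marrow with M-CSF for 7 days, from C57BL/6 mice of 8 weeks that were either WT or *Keap1* flox/flox::*LysM*-Cre (KpCKO). *LysM*-Cre is active in cells of the myeloid lineage, and the labels do not say whether the WT mice carried the floxed allele or the Cre. BMDMs of each genotype were untreated (Con), stimulated for 6 h with LPS and IFNγ (M1), or stimulated for 6 h with IL-4 (M2), which gave 6 groups of 2 arrays. Each of 2 cultures came from a pair of mice, 1 of each genotype, and the pair was male for culture 1 and female for culture 2, so culture and sex cannot be told apart. Each slide held the 4 arrays of 1 stimulus. The genotypes were thus compared within a slide, whereas a stimulus and its slide cannot be told apart.

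Keap1 is the adaptor through which the transcription factor Nrf2 is ubiquitinated and degraded, and its loss lets Nrf2 accumulate and raise antioxidant and detoxifying genes. LPS, which acts through Toll-like receptor 4, and IFNγ together drive the proinflammatory M1 state, whereas IL-4 acts through STAT6 to drive the M2 state. The 6 genes belong to no common family. *Edn1* encodes the precursor of endothelin-1, a secreted vasoconstrictor peptide that activated macrophages also make. *Dcn* encodes decorin, a secreted proteoglycan of the matrix, *Galnt3* an enzyme that starts mucin-type O-glycosylation in the Golgi, and *Pde7b* a phosphodiesterase that breaks down cAMP. *Cytip* encodes a cytosolic partner of cytohesins in leukocytes, and *Emb* encodes embigin, a membrane glycoprotein that accompanies monocarboxylate transporters.

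A level here is the log2 intensity of a probe minus that of the 75th percentile on the same array, so that 0 is the level of that percentile. The percentile lay at an intensity of 757 and 548 for the WT cells of M1, 906 and 787 for the KpCKO cells of M1 and from 966 to 1166 on the 8 others, and between 59.4% and 71.5% of the probes of an array were well above background. The median of all probes was −0.10 for KpCKO against WT in M1, and for M1 against Con in WT it was 0.12, or −0.06 after quantile normalization. *Keap1* lay between 2.85 and 4.80 on the WT arrays and between 0.94 and 3.04 on the KpCKO arrays. It was lower in KpCKO by −1.46 in Con, −1.71 in M1 and −1.81 in M2 (limma, adjusted p = 0.0324, 0.00723 and 0.0157), and where its probe lies relative to the deleted part was not analysed here. *Nqo1*, a classical Nrf2 target, lay between −2.45 and −1.58 on the WT arrays and between 1.07 and 1.79 on the KpCKO arrays. All 7 macrophage markers with a probe were well above background in every group, and their summed level was between 52365% and 86818% of the array percentile on the WT arrays and between 39459% and 58900% on the KpCKO arrays. In M1 4 of these 7 passed limma's test as lower in KpCKO and 0 as higher, where 17.2% of all probes passed in either direction. They were *Adgre1* at −0.39, *Itgam* at −0.65, *Fcgr1* at −1.20 and *C1qa* at −1.15 (limma, adjusted p = 0.0381, 0.0130, 0.0285 and 0.00901). *C1qa* alone also passed in Con and M2, at −1.43 and −1.36 (adjusted p = 0.0115 and 0.0133). The part of these differences in the results was not tested.

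**Figure D1:**
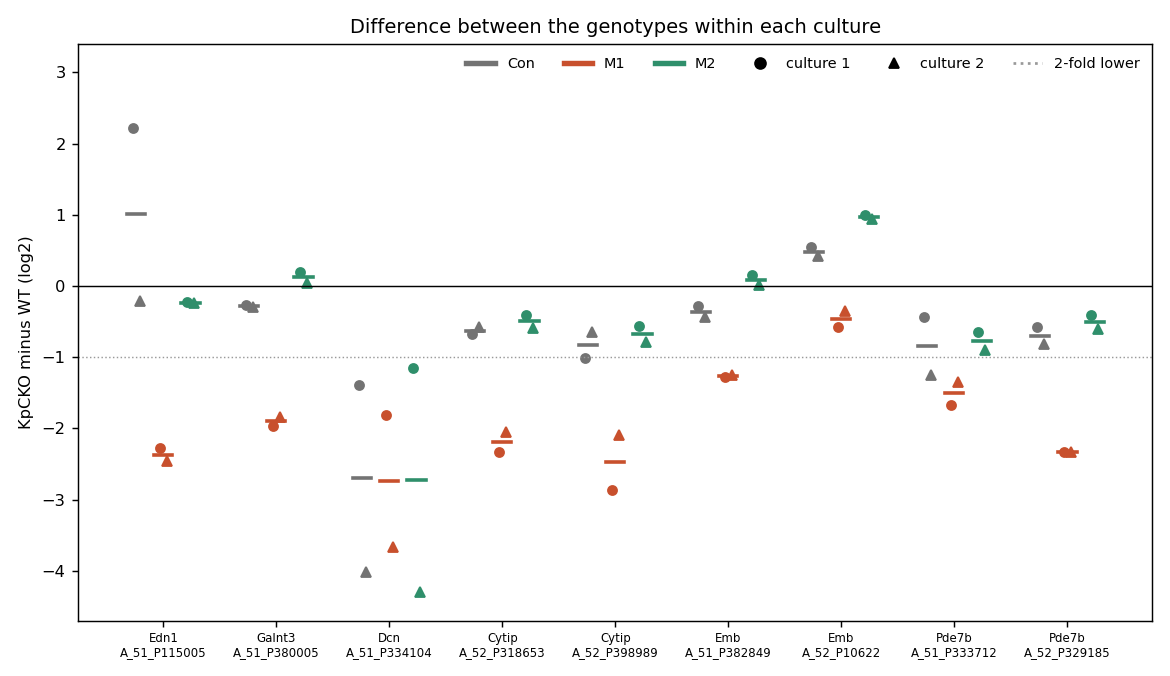
The log2 difference between KpCKO and WT is plotted for each member probe in Con (grey), M1 (orange) and M2 (green), with a circle for culture 1, a triangle for culture 2 and a bar for their mean. The M1 differences, by which the genes were chosen, are below 0 for all 9 probes. In Con and M2 the mean of *Dcn* is −2.70 and −2.72, and the *Emb* probe A_52_P10622 is above 0 in both cultures under both conditions.

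In M1, by which the genes were chosen, 8 of the 9 probes and all 6 genes were more than 2-fold lower in KpCKO in both cultures, against a background of 2.38% of 29338 probes. With normexp background correction *Emb* and *Pde7b* were under this fold, with mean differences of −0.79 and −0.28 for the *Emb* probes and −0.87 and −0.40 for the *Pde7b* probes, and after quantile normalization *Emb* was, at −0.996 and −0.31. The probe just inside this fold was the *Emb* probe A_51_P382849, with a mean difference of −1.26, and the single probe outside it was the other *Emb* probe, A_52_P10622, with −0.47. The same fold was passed by 1 probe in Con, where the background was 0.876%, and by 1 probe in M2, where the background was 0.668%, and both times the probe was that of *Dcn*. In limma's test over all probes, 0 of the 9 probes passed for the genotype in Con at an adjusted p under 0.05, where 2.14% of all probes did. An unadjusted p under 0.05 was reached by 5 of the 9 and by 4138 of the 29525 probes tested. In M2 1 of 9 probes passed, where 1.88% of all probes did, and it was higher in KpCKO, not lower. The median difference over the 9 probes was −0.63 in Con and −0.50 in M2, beside medians of −0.01 and 0.01 over all probes tested. WT M1 had the highest mean of the 6 groups for all 9 probes, which the choice of the genes favoured.

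**Figure D2:**
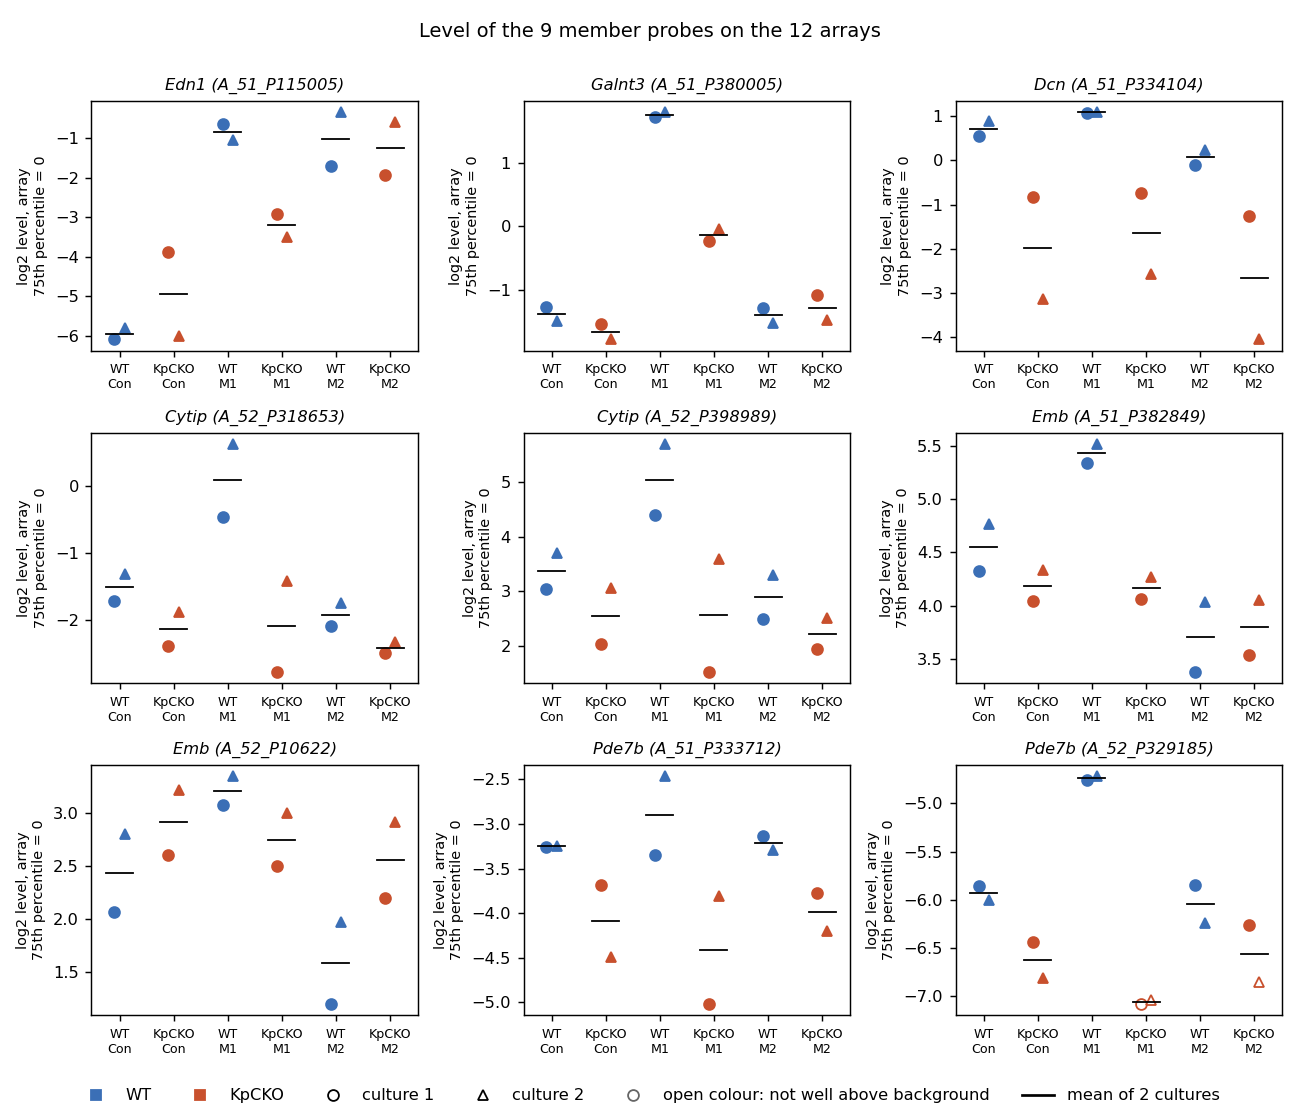
The log2 level of each member probe is plotted on its own axis for the 6 groups, with WT in blue, KpCKO in orange, circles for culture 1, triangles for culture 2, a bar for the mean of the 2 cultures and open symbols for arrays on which the probe was not well above background. *Edn1* in M2 overlaps its level in WT M1, *Galnt3* is highest in M1 in both genotypes, and *Dcn* is lower on every KpCKO array than on any WT array.

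*Edn1* had the widest range of all members and its highest levels under both stimuli. Its level was −6.09 and −5.80 in untreated WT cells, −0.64 and −1.04 after M1 stimulation and −1.71 and −0.34 after IL-4, and the KpCKO cells gave −3.88 and −6.00, then −2.91 and −3.50, then −1.94 and −0.58 in the same order (cultures 1 and 2). The WT M1, WT M2 and KpCKO M2 arrays overlapped at the top, KpCKO M1 lay below them, and both Con groups overlapped at the bottom. IL-4 raised *Edn1* in WT by 4.92 on the log2 scale, a 30.3-fold increase (SE 0.80, limma, adjusted p = 0.00913), and in KpCKO by 3.68, a 12.8-fold increase (adjusted p = 0.0327). The changes in WT start from a dim baseline, with *Edn1* intensities of 16.7 and 18.4 on the WT Con arrays, although well above background. With M1 the level of *Edn1* changed by 5.11 in WT and 1.73 in KpCKO, values that belong to the choice and were not tested. With normexp background correction the IL-4 responses were 2.47 and 1.99 and the M1 response in WT was 2.80, and the IL-4 calls held (adjusted p = 0.00762 and 0.0252).

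The genotype difference of *Edn1* was −2.27 and −2.46 in the cultures in M1 but −0.23 and −0.24 in M2. The M2 difference had a 95% interval from −2.13 to 1.66, and whether it differs from that in M1 was not tested. In Con, the difference was 2.22 in culture 1 and −0.20 in culture 2, and the mean difference turned from 1.01 to −0.26 without the KpCKO Con array of culture 1 (adjusted p = 0.690 with it). That array also entered the IL-4 response in KpCKO, which was 1.94 in culture 1 and 5.42 in culture 2. Without the KpCKO Con array of culture 2, that response was 2.42 with an adjusted p of 0.140, and without the KpCKO M2 array of culture 2 it was 2.86 (adjusted p = 0.183). Its call was also lost without the KpCKO M2 array of culture 1 or either WT Con array (adjusted p = 0.0612 and 0.0613), and in WT the call was lost without either Con array or the M2 array of culture 2 (adjusted p = 0.0588 to 0.0682). Of the endothelial markers, *Tek* and *Tie1* were not well above background in any group, *Pecam1* and *Vwf* rose with IL-4 in WT by 4.01 and 0.84, and *Kdr* and *Cdh5* fell by 2.53 and 1.46 (limma, adjusted p = 0.00268, 0.0477, 0.0336 and 0.0147). *Kdr* was also lower in KpCKO than in WT in M1, by −2.71 (adjusted p = 0.0305). The summed level of the 8 endothelial markers was between 1116% and 2023% of the array percentile in Con, between 1139% and 1748% in M1 and between 1960% and 3133% in M2, and their part in the *Edn1* result was not tested.

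The promoter of *Edn1* is shown because it held the only match among 5 member promoters to any motif searched, the antioxidant responsive element (ARE) that Nrf2 binds with small Maf proteins. That of *Galnt3* is shown beside it as the window of a gene that was high in M1 and not in M2. Both are RefSeq windows of 300 bases around the start site in GRCm38.p6, read 5′ to 3′ along the gene, and the capitals mark the ARE match TGACTTTGC at position −194 from the start site.
Edn1, chr13:42301226-42301525, plus strand: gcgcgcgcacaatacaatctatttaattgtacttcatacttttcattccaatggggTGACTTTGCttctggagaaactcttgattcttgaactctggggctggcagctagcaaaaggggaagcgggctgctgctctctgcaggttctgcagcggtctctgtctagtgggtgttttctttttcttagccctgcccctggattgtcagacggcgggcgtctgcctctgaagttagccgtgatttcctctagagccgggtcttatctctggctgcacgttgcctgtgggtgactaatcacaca
Galnt3, chr2:66124744-66125043, minus strand: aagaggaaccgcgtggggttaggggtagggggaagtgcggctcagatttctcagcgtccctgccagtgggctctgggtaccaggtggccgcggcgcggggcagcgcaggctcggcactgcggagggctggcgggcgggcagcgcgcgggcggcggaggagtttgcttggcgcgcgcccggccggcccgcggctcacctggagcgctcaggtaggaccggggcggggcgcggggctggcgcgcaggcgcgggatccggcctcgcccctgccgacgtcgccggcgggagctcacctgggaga

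The motifs were searched on both strands in the windows of *Cytip*, *Edn1*, *Emb*, *Galnt3* and *Pde7b* and in all 32851 windows of the table. The ARE form TGACNNNGC was held by 12.4% of all windows and by 1 of the 5, and the form TGAGNNNGC by 17.6% of all and 0 of the 5. The AP-1 site TGANTCA, the STAT site TTCNNNGAA and the NF-κB consensus were held by 7.81%, 8.30% and 8.46% of all windows and by 0 of the 5. A match is a description of letters and not a bound site. The *Galnt3* window was rich in GC at 76.7% with 41 CpG dinucleotides, the others lay between 46.0% and 57.7% with 7 to 14, and the median of all windows was 52.7% with 7.

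*Dcn* was the member whose genotype difference had nearly the same mean under all 3 conditions. Its level was 0.55 and 0.88 in WT Con, 1.08 and 1.09 in WT M1, and −0.11 and 0.24 in WT M2. In KpCKO it was −0.84 and −3.14 in Con, −0.73 and −2.57 in M1, and −1.27 and −4.05 in M2. All 6 KpCKO arrays lay below all 6 WT arrays, and among the KpCKO arrays culture 2 lay below culture 1 under each condition. The mean difference was −2.70 in Con, −2.74 in M1 and −2.72 after IL-4. With an SE of 0.86 it did not pass limma's test over all probes in Con (unadjusted p = 0.0164, adjusted p = 0.212) or in M2 (unadjusted p = 0.0158, adjusted p = 0.217). In culture 1 it was −1.39, −1.82 and −1.16, and in culture 2 it was −4.02, −3.66 and −4.29.

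M1 moved *Dcn* little in either genotype, by 0.37 in WT and 0.33 in KpCKO, and IL-4 by −0.65 and −0.67 (adjusted p = 0.645 and 0.667). The genotype difference in the IL-4 response was −0.02 with a 95% interval from −2.90 to 2.85. Decorin is typical of fibroblasts, and in whole cultures fewer cells of a type and less RNA per cell cannot be told apart. Of the 8 fibroblast markers 7 were well above background in every group, while for *Lum* both arrays fell short of that in 5 of the 6 groups. Their summed level was between 3237% and 4186% of the array percentile on the WT arrays, between 4396% and 5681% on the KpCKO arrays of culture 1 and between 2369% and 2954% on those of culture 2. In each comparison of the genotypes 0 of 7 fibroblast markers tested passed, and their part in the *Dcn* values was not tested.

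*Galnt3* was higher in M1 than in Con in both genotypes, and passed the test with IL-4 in neither. Its level was −1.28 and −1.49 in untreated WT cells, 1.72 and 1.81 after M1 stimulation and −1.28 and −1.53 after IL-4, and the KpCKO cells gave −1.54 and −1.79, then −0.24 and −0.03, then −1.09 and −1.48 in the same order. WT M1 stood highest and KpCKO M1 next, each apart from all other groups, and the 4 remaining groups lay between −1.79 and −1.09. The change with M1 was 3.15 in WT and 1.53 in KpCKO, and *Galnt3* was the single member more than 2-fold higher in both cultures in KpCKO M1, where 10.1% of all probes were. The genotypes differed by −1.90 in M1, by −0.28 in Con (adjusted p = 0.523) and by 0.12 in M2 (95% interval −0.25 to 0.50, adjusted p = 0.814). IL-4 moved it by −0.02 in WT and by 0.38 in KpCKO (adjusted p = 0.943 and 0.177).

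*Pde7b* was dim, and its 2 probes differed in how M1 moved them in WT. The probe A_51_P333712 read −3.26 and −3.25 in untreated WT cells, −3.34 and −2.47 after M1 stimulation and −3.14 and −3.29 after IL-4, and the KpCKO cells gave −3.69 and −4.49, then −5.02 and −3.81, then −3.78 and −4.20 in the same order. The probe A_52_P329185 read −5.86 and −6.00 in untreated WT cells, −4.75 and −4.72 after M1 stimulation and −5.85 and −6.25 after IL-4, and the KpCKO cells gave −6.44 and −6.81, then −7.08 and −7.05, then −6.27 and −6.85 in the same order. By both probes the KpCKO arrays lay below the WT arrays of the same stimulus. The second probe was too dim to be well above background on both KpCKO M1 arrays and on the KpCKO M2 array of culture 2. Its fold of WT M1 over KpCKO M1 is thus only bounded, at 4.98 in the main scaling. That bound rests on the lowest signal of any probe well above background on the array, not on a limit of this probe. By the first probe the mean M1 difference was −1.51. With normexp background correction the second probe gave −0.40 in M1, so the bound does not hold under that scaling.

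The difference of *Pde7b* between the genotypes was −0.84 and −0.70 in Con by the 2 probes (limma, adjusted p = 0.515 and 0.116) and −0.77 and −0.51 in M2 (adjusted p = 0.530 and 0.248). M1 in WT moved the first probe by −0.09 in culture 1 and 0.78 in culture 2, and the second by 1.10 and 1.28. Over the 12 arrays the 2 probes correlated at r = 0.808, a description over arrays that share slides and cultures. With IL-4 the mean change of either probe in either genotype was between −0.12 and 0.10, with adjusted p between 0.670 and 0.969.

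*Cytip* was lower in KpCKO under all 3 conditions by both probes, and most so in M1. The probe A_52_P398989 read 3.04 and 3.71 in untreated WT cells, 4.40 and 5.69 after M1 stimulation and 2.50 and 3.30 after IL-4, and the KpCKO cells gave 2.03 and 3.07, then 1.53 and 3.60, then 1.94 and 2.51 in the same order. The probe A_52_P318653 read −1.72 and −1.31 in untreated WT cells, −0.45 and 0.63 after M1 stimulation and −2.10 and −1.75 after IL-4, and the KpCKO cells gave −2.40 and −1.89, then −2.78 and −1.42, then −2.50 and −2.34 in the same order. Culture 2 was higher than culture 1 in all 6 groups by both probes, and the probes correlated at r = 0.985 over the 12 arrays. By A_52_P398989 the Con and M2 groups of the genotypes overlapped, and WT M1 stood apart from every other group.

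By A_52_P398989 and A_52_P318653, *Cytip* differed between the genotypes by −2.48 and −2.19 in M1, by −0.83 and −0.63 in Con (limma, adjusted p = 0.344 and 0.409) and by −0.67 and −0.50 in M2 (adjusted p = 0.439 and 0.515). With M1 the WT means changed by 1.67 and 1.61, while in KpCKO the change was below 0 in culture 1 and above 0 in culture 2, with means of 0.02 and 0.05. The changes with IL-4 were −0.48 and −0.41 in WT and −0.32 and −0.27 in KpCKO, and 0 of these 4 passed. *Cytip* is known from dendritic cells and lymphocytes. The summed level of the 6 dendritic cell markers was 168% and 171% of the array percentile in WT Con, between 601% and 892% on the stimulated WT arrays and between 802% and 2714% on the KpCKO arrays, higher in KpCKO than in WT of the same stimulus. The list did not move one way, since in M1 *Itgax* was higher by 1.37 and *Xcr1* lower at −1.05 (limma, adjusted p = 0.0414 and 0.0173), and the median of the 6 was −0.35. In Con *Itgax* alone passed, at 2.99 (adjusted p = 0.0106). That of the 8 lymphocyte markers was between 23.5% and 111%, with *Cd3d* and *Ms4a1* not well above background in any group, and the part of either list in the *Cytip* values was not tested.

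The 2 probes of *Emb* disagreed on the genotype. The probe A_51_P382849 read 4.33 and 4.77 in untreated WT cells, 5.34 and 5.51 after M1 stimulation and 3.38 and 4.03 after IL-4, and the KpCKO cells gave 4.04 and 4.33, then 4.06 and 4.27, then 3.54 and 4.05 in the same order. The probe A_52_P10622 read 2.07 and 2.80 in untreated WT cells, 3.08 and 3.35 after M1 stimulation and 1.20 and 1.97 after IL-4, and the KpCKO cells gave 2.61 and 3.22, then 2.50 and 3.002, then 2.20 and 2.92 in the same order. WT M1 was apart from KpCKO M1 by both probes, and the groups of M2 were apart by the second probe alone, with KpCKO above WT. The probes correlated at r = 0.732 over the 12 arrays. In M1 they gave genotype differences of −1.26 and −0.47.

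In M2 the second *Emb* probe was higher in KpCKO by 0.97, a 1.96-fold difference (SE 0.14, limma, adjusted p = 0.0223, higher in 2 of 2 cultures), while the first differed by 0.09 with a 95% interval from −0.24 to 0.41 (adjusted p = 0.858). The call of the second probe was lost without any 1 of the 8 Con and M2 arrays (adjusted p = 0.0536 to 0.175), and with no culture term its adjusted p was 0.535. In Con the second probe was higher by 0.48 and the first lower, with a difference of −0.36 (adjusted p = 0.175 and 0.308). IL-4 lowered both probes in WT, by −0.84 for A_51_P382849 and −0.85 for A_52_P10622 (adjusted p = 0.00949 and 0.00943), and both calls were lost without either WT Con array or the WT M2 array of culture 1 (adjusted p = 0.0524 to 0.0787). In KpCKO the changes with IL-4 were −0.39 and −0.36 (adjusted p = 0.121 and 0.153). M1 moved the probes by 0.88 and 0.78 in WT and by −0.02 and −0.17 in KpCKO. The value of 0.88 depended on the scaling, with 0.14 after quantile normalization and −0.03 with normexp background correction.

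**Figure D3:**
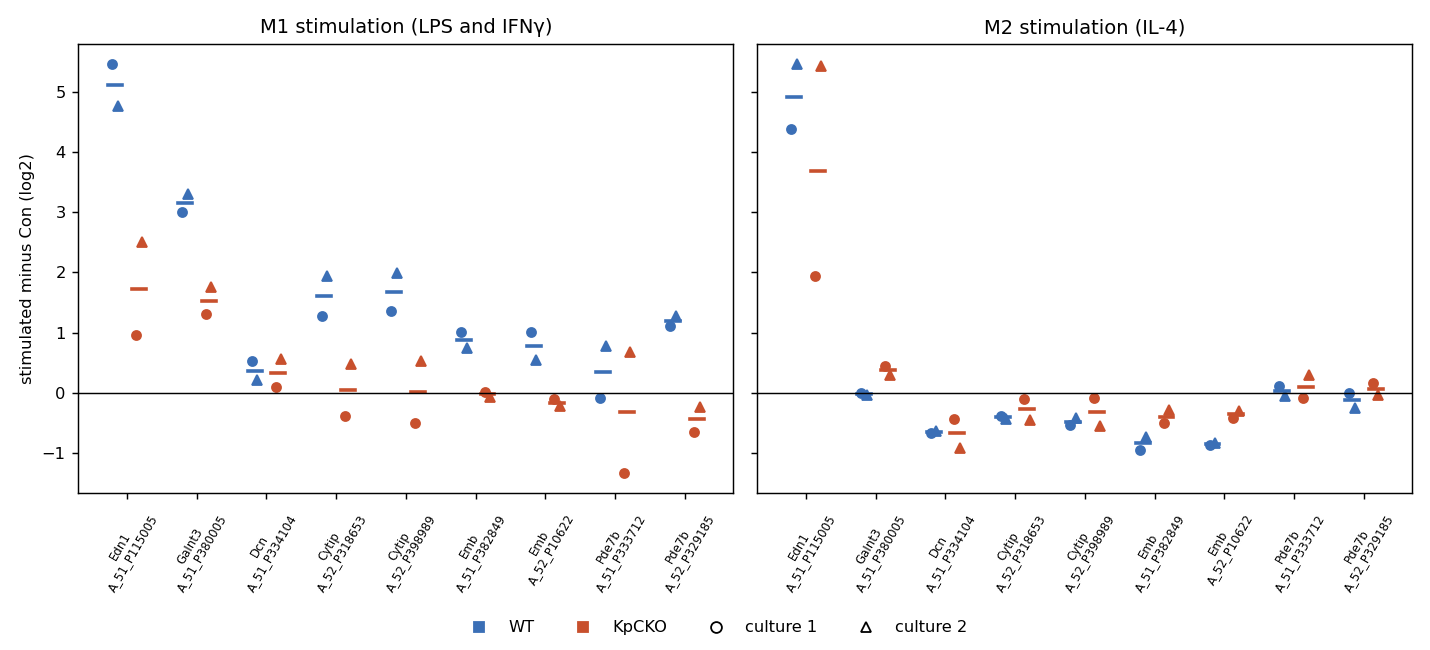
The log2 change from Con is plotted for each member probe with M1 stimulation (left) and IL-4 (right), in WT (blue) and KpCKO (orange), with a circle for culture 1, a triangle for culture 2 and a bar for the mean. With M1 the WT mean is above the KpCKO mean for every probe, and with IL-4 the probe of *Edn1* moves the most, by 4.92 in WT and 3.68 in KpCKO.

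Over the members, M1 against Con in WT gave 5 of 9 probes and 4 of 6 genes more than 2-fold higher in both cultures, where 15.4% of all probes were. These genes were *Edn1*, *Galnt3*, *Cytip* and, by 1 of its probes, *Pde7b*. *Dcn* and *Emb* did not reach that fold here, although the study defined its M1-induced genes by it. Their means were 0.37 for *Dcn* and 0.88 and 0.78 for the *Emb* probes. IL-4 in WT called 3 of 9 probes, 1 higher and 2 lower, where 18.2% of all probes passed, and in KpCKO 1 of 9, where 11.1% did. The genotype difference in the IL-4 response was called for 0 of 9 probes by limma and for 0.00677% of all probes. An unadjusted p under 0.05 was reached by 1 of the 9 and by 595 of the 29523 probes tested. The comparisons with Con share the Con arrays of their genotype.

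Relatives and partners of each member were taken by family, each gene by its brightest probe. In the endothelin system, KpCKO had more RNA of a receptor gene under all 3 conditions, and its relation to the *Edn1* values was not tested. *Ednrb*, the endothelin B receptor, read −2.97 and −2.84 in untreated WT cells, 0.50 and −0.84 after M1 stimulation and −2.09 and −3.02 after IL-4, and the KpCKO cells gave 0.88 and 0.26, then 4.86 and 3.93, then 0.97 and −0.32 in the same order. The KpCKO arrays stood above the WT arrays of the same stimulus in both cultures, by 3.47 in Con, 4.57 in M1 and 2.88 in M2 (limma, adjusted p = 0.00522, 0.000949 and 0.0104). *Ece1*, whose enzyme cuts big endothelin to the active peptide, was lower in M1, with a difference of −0.61 (adjusted p = 0.0161), a call lost after quantile normalization. The other 3 of 5 genes tested, *Edn3*, *Ednra* and *Ece2*, passed in no comparison of the genotypes, and *Edn2* was too dim to test.

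In M1, 17.2% of all probes passed for the genotype, which is the background to the counts of the other families. Of 6 cytohesin and ARF genes 3 were lower in M1, namely *Arf6* by −0.70, *Arf1* by −0.61 and *Cyth2* by −0.37 (adjusted p = 0.0231, 0.0252 and 0.0317), but 0 of 6 passed after quantile normalization. The median difference in M1 over the 6 was −0.56, beside −0.10 over all probes tested. Of 14 GalNAc transferases and their core 1 partners 3 were higher in M1 and 0 lower, a share near that of all probes, and the median of the list was 0.39. These were *Galnt12* by 2.01, *Galnt11* by 0.87 and *Galnt13*, which was not well above background on either WT M1 array and on 1 of the 2 KpCKO M1 arrays, so that no fold is given for it (limma, adjusted p = 0.0136, 0.0214 and 0.0414). Without the KpCKO M1 array of culture 1, 0 of 14 passed, with no culture term 1 passed, and with normexp background correction 5 were higher and 1 lower. *Galnt12* fell with M1 from 2.74 and 2.80 in untreated WT cells to −0.66 and −1.30 (limma, adjusted p = 0.000101), and the KpCKO cells after M1 read 0.77 and 1.29. *Galnt4* passed in Con alone, at −0.60 (adjusted p = 0.0452), and its call held in 0 of 12 fits that left out 1 array.

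Of 7 cAMP phosphodiesterases tested, *Pde8b* was higher in KpCKO and *Pde3b* lower. *Pde8b* read −6.17 and −5.55 in WT Con against −3.73 and −3.42 in KpCKO Con, a difference of 2.29 (adjusted p = 0.0292), and in M1 it was at least 4.81-fold higher, as WT M1 was not well above background (adjusted p = 0.00284). With normexp background correction these differences were 0.84 and 0.91, so the bound holds for the main scaling alone, and the call in Con held in 4 of 12 fits that left out 1 array. *Pde3b* was lower, with differences of −1.06 in Con and −0.90 in M1 (adjusted p = 0.0160 and 0.0109). Of the 6 genes of the basigin family and the monocarboxylate transporters, 1 was higher and 4 lower in M1, and after quantile normalization 1 was higher and 2 lower. *Slc16a3*, the lactate exporter MCT4, was lower in all 3 comparisons, by −1.001 in Con, −1.24 in M1 and −0.98 in M2 (adjusted p = 0.00620, 0.00127 and 0.00681). *Slc16a7* was higher in M1 by 0.78, and *Slc16a8* and *Nptn* were lower, with differences of −0.70 and −0.42 (adjusted p = 0.0338, 0.0371 and 0.0302), and the fourth that was lower was *Bsg* at −0.33, the smallest of them and outside the rule for naming. Of the small leucine-rich proteoglycans related to *Dcn*, 6 of 11 could be tested and 1 passed, *Prelp*, lower in M2 by −1.84 (adjusted p = 0.0479). Its call held in 2 of 12 fits that left out 1 array and was lost with normexp background correction, where the difference was −0.60, with no filter, with no culture term and with only the groups compared.

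With no culture term, calls were lost for *Ednrb* in M2, *Pde3b* in Con and M1 and *Galnt4* in Con. In M1 they were also lost for *Arf1*, *Cyth2*, *Galnt11*, *Galnt13*, *Slc16a7*, *Slc16a8* and *Nptn*. With no filter on dim probes, those of *Cyth2*, *Galnt13*, *Slc16a7*, *Slc16a8* and *Nptn* in M1 and of *Galnt4* and *Pde8b* in Con were lost. The calls of the relatives also differed in how they stood when 1 array was left out. That of *Ednrb* held in 11 of 12 such fits in Con, 12 in M1 and 9 in M2, and that of *Slc16a3* in 8, 12 and 9. *Pde3b* held in 9 fits in Con and 10 in M1. In M1 *Ece1* and *Galnt12* held in 11, *Arf6* and *Galnt11* in 10, *Arf1* in 7, *Slc16a8* in 5, *Nptn* in 4, *Slc16a7* and *Galnt13* in 3 and *Cyth2* in 1.

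**Figure D4:**
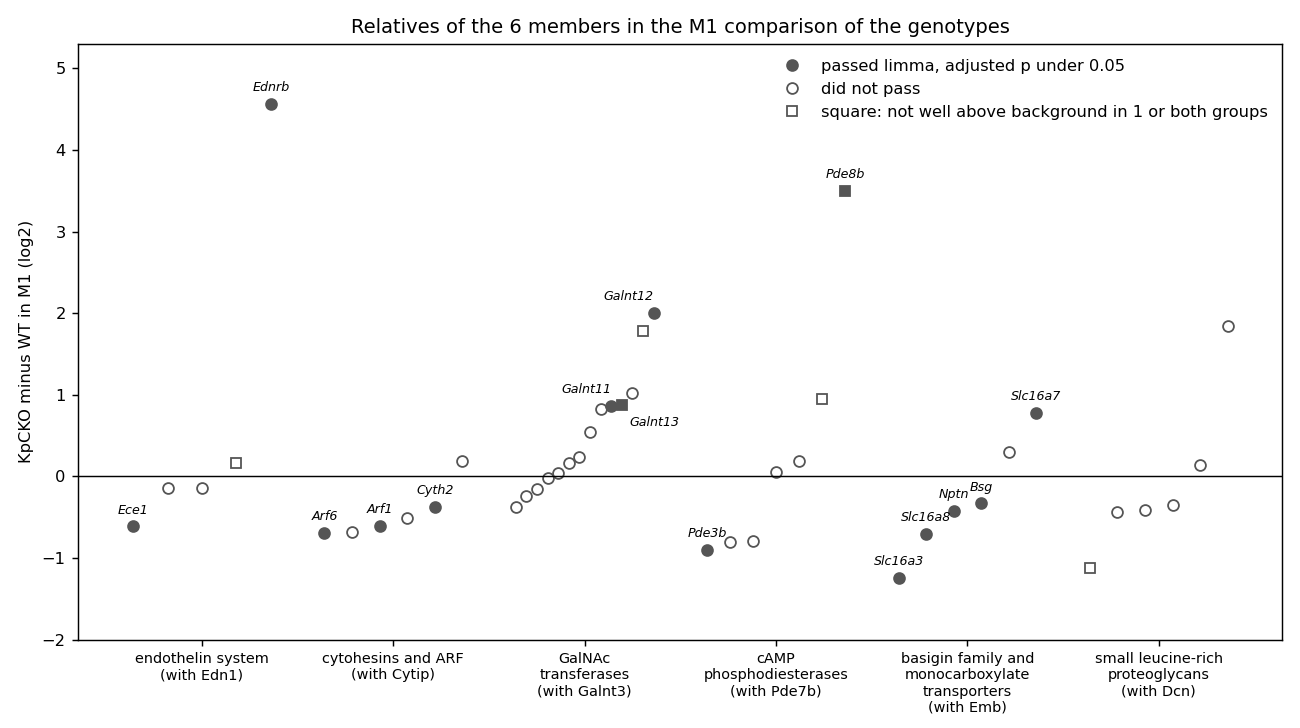
The log2 difference between KpCKO and WT in M1 is plotted for every tested relative of a member, grouped by family and ordered by size within it, with filled symbols and names for genes that passed limma's test over all probes and squares for genes that 1 of the groups had well above background on 0 of its 2 arrays, whose height is not a measured difference. *Ednrb* at 4.57 is the highest circle and *Slc16a3* at −1.24 the lowest, and *Pde8b* and *Galnt13* are squares.

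The genes whose levels followed each member most closely were ranked by Pearson's r over the 12 arrays among 14465 genes. They were *Kcnmb2*, *Plekhj1* and *Psmd13* for *Edn1* (r = 0.956, 0.949 and 0.939), *Kremen1*, *Il33* and *Myl12b* for *Galnt3* (0.988, 0.987 and 0.987), and *Elac1*, *Hsp90b1* and *Btg2* for *Cytip* (0.956, 0.955 and 0.951). For *Dcn* they were *Tnn*, *Itga9* and *Nr1h3* (0.953, 0.953 and 0.933), for *Emb* *Hmgn5*, *Zbtb6* and *N4bp2l1* (0.953, 0.945 and 0.944), and for *Pde7b* *Pdgfd*, *Gpr65* and *Cnn2* (0.928, 0.911 and 0.899). Between members by their brightest probes, *Cytip* and *Emb* were the most alike at r = 0.857, and *Edn1* was the least like the others, with r between 0.016 and 0.432. These arrays share stimuli, slides and cultures, so the values describe the arrays and carry no test.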

How the data were processed

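RNA of 12 BMDM samples was hybridized, each to a 1-colour Agilent array. The authors extracted the spots with Feature Extraction 10.7.3.1, per the submitters' processing notes, and deposited a background-subtracted intensity for each spot, not scaled between arrays. They also deposited a matrix of log2 values. Outlier spots were dropped, spots of a probe averaged, and each log2 intensity lowered by that of the 75th percentile on the same array, with probes of a gene kept apart. Probes that 1 or more groups had well above background on both their arrays were fitted in limma 3.58.1 (R 4.3.3) with 6 groups and the culture, and p was adjusted by Benjamini-Hochberg over all probes at 0.05. The fit left 5 residual degrees of freedom and had 1.96 prior ones. With 2 arrays in each group the smallest p of an exact test is 0.333, so none is given, and the number of arrays limits the precision. A probe not well above background in a group gives only a bound, set from the lowest signal of any probe well above background on the same array.

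Members were matched by the RefSeq accession that the array gives for each probe, and all 9 probes passed the filter. The series' description pairs the genotypes by culture, and over 15 pairs of groups the deviations of the same culture correlated at r = 0.175 to 0.605. The model was also run on simulated data for the genotype comparison in M2. That run used independent normal errors around the model's own fit, so it cannot show how the model fares on signals near background. The members and lists were chosen with earlier results of these data known. Relatives were named where they passed in a comparison of the genotypes, at most 4 a family by size. Neutrophil markers, also listed, summed to between 315% and 1652% of the array percentile. The alternatives were quantile normalization, normexp with an offset of 50, the authors' matrix, no filter, a filter on all 12 arrays, genes by their brightest probe, no culture term, only the groups compared, the methods' t-test, and leaving out each array.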

Additional observations from a re-analysis of the deposited data

Results flagged for a closer look

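For 3 genes a contrast ran one way in both cultures of one group and the other way in both cultures of another, and the difference between the contrasts was not tested, since the M1 arrays chose the genes. The *Emb* probe A_51_P382849 differed between KpCKO and WT by 0.15 and 0.02 in M2 and by −1.28 and −1.24 in M1, so that the M1 difference lay −1.35 from that in M2. The *Emb* probe A_52_P10622 differed by 0.54 and 0.42 in Con, by 0.9996 and 0.95 in M2 and by −0.58 and −0.35 in M1, which lay −0.95 from Con and −1.44 from M2. The same probe moved with M1 by 1.01 and 0.55 in WT and by −0.11 and −0.22 in KpCKO, the same −0.95 seen from the other side. *Galnt3* differed between the genotypes by 0.19 and 0.05 in M2 and by −1.96 and −1.84 in M1, a gap of −2.02. The *Pde7b* probe A_52_P329185 moved with M1 by 1.10 and 1.28 in WT and by −0.64 and −0.23 in KpCKO, a gap of −1.63, where both KpCKO M1 arrays were not well above background.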

How the results depend on the processing

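Of the single values recomputed under the alternatives, 1250 kept their side of the threshold or, with no test, stayed within the spread of the cultures. These include values not called that changed sign, such as *Edn1* for the genotype in Con. Most of them had no test or were not called in the main fit, so their number does not measure how firm the calls were. A further 69 values with no test moved beyond that spread, 37 calls were lost, 1 was gained and 0 called values changed sign. The lost calls came from the 1 probe called for the genotype in M2, the 3 for IL-4 in WT and the 1 for IL-4 in KpCKO. Each of these was recomputed under 20 or 21 alternatives besides the unadjusted t-test. The cause was not tested for any of these changes. The fits that leave an array out also have fewer arrays and residual degrees of freedom. The call for KpCKO against WT in M2, 1 member probe, fell to 0 with no replicate block, with only the groups compared, and by the methods' t-test, adjusted or not. It did not hold in every fit that left out an array. With genes by their brightest probe it could not be made, since its probe is the dimmer of the *Emb* probes and was not tested there. The 3 probes called for IL-4 in WT became 1 with no replicate block, 0 by the methods' t-test after adjustment and 1 before it, and ranged from 0 to 3 without each array. The 1 probe called for IL-4 in KpCKO became 0 with no filter on dim probes, with only the groups compared and by the methods' t-test, adjusted or not, and ranged from 0 to 1 without each array. The gained call was *Dcn* with IL-4 in WT with only the groups compared (−0.65, adjusted p = 0.0326). No member probe was called for the genotype in Con under any alternative. With only the groups compared, a fit on 4 arrays, 0 of 29525 probes were called for the genotype in Con, 0 of 29512 in M1 and 0 of 29523 in M2. The loss of the relatives' calls under that setting was therefore shared by every probe. Dim signals, as for *Pde7b* and for *Edn1* in untreated WT cells, limit how large a fold could be measured.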
